A study of Oryza sativa with 12 samples.

Results

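The response of germinating rice embryos to the uncoupler 2,4-dinitrophenol (DNP), in air and with glucose in the medium, was measured by comparing the condition GlcDNP with the condition Glc. Both conditions were chosen by their labels, 2 arrays each, which makes 4 of the 12 arrays of the study. Embryos were of Oryza sativa cultivar Dongjin, 150 to 200 surface-sterilized embryos to an incubation, kept for 24 h in darkness, at 28 °C. GlcDNP embryos were given 60 mM glucose, 10 mM calcium chloride and 0.08 mM DNP in air. Glc embryos had the same sugar, calcium and air, without DNP. For comparison, MtlDNP and Mtl embryos had 60 mM mannitol in place of glucose, with and without the same dose of DNP. GlcAC embryos had glucose and no DNP. The labels do not spell out AC, and the one other incubation described is submerged in nitrogen-flushed medium. The design text calls the replicates technical, so the 2 arrays of a condition may hold RNA of the same embryos, and every p-value below measures the spread between arrays only.

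DNP carries protons across the inner mitochondrial membrane. It lets the respiratory chain run while less of the proton gradient is left for the ATP synthase, so cells in air respire but make less ATP per oxygen consumed. A germinating cereal embryo respires stored and absorbed sugar, rebuilds its mitochondria and ribosomes, loses the transcripts of late seed maturation, and starts to elongate and divide. Glucose is known to repress a set of genes in the rice embryo that are active in sugar starvation, among them the alpha-amylase gene RAmy3D. The comparison asks how far transcripts differ with DNP while oxygen and sugar are both present. The arrays measure transcripts only, so ATP supply itself was not followed.

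Transcript levels are given as the deposited log2 values, on which a step of 1 is a doubling. The array has 36643 probe sets, called probes here. Of them, 24161 had 1 gene and 2738 of those had a symbol or synonym that is more than a locus number, so only these could be described by name. Each name is followed, where it matters, by the gene number of the tables used. The values of the 2 GlcDNP arrays correlated at 0.957 and those of the 2 Glc arrays at 0.970, against 0.868 to 0.886 between a GlcDNP and a Glc array (all probes, a description). The SD over probes within an array was 1.66 and 1.67 with DNP and 1.81 and 1.86 without it, while the array medians were 3.31 and 3.31 with DNP and 3.29 and 3.26 without it. A probe was called where limma's p, adjusted by Benjamini-Hochberg over all probes, was under 0.05 and the means differed at least 2-fold, 1 on the log2 scale. "Rose" and "fell" below mean called higher or lower in GlcDNP than in Glc, since no time before 24 h was sampled. In whole embryos, fewer cells of a type and less RNA per cell cannot be told apart.

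DNP was accompanied by a change in 5113 of the 36643 probes, 14.0% of those tested. Probes that fell outnumbered those that rose, with 1712 rising (4.67%) and 3401 falling (9.28%). With the columns quantile-normalized again there were 2064 that rose and 2771 that fell, so the rising share of the calls was 42.7%, against 33.5% as deposited. As deposited, the falls were also larger. At a log2 difference of at least 2, a 4-fold change, there were 296 that rose and 936 that fell. At 3 or more there were 54 that rose and 216 that fell. Whether these counts hold after another quantile normalization was not tested. The difference over all probes ranged from -5.40 to 4.60, with a median of 0.10. Probes were put in 5 classes of equal size by their level in the other 8 arrays of the study. In the brightest class 858 rose and 1835 fell, and the median difference was -0.14. In the dimmest class 145 rose and 100 fell, with a median of 0.17. Of the risers, 324 had a Glc level under 2.23, the 25th percentile of the 4 arrays. Of the fallers, 321 had a GlcDNP level under it. Such a level is not shown to be above background and the size of those differences is not settled. Of the 2738 probes with a usable name 142 rose (5.19%) and 369 fell (13.5%). All members of the gene lists have such a name, so these shares are the background of the list counts below. Of 206 called genes followed through the alternative fits, 133 kept their call in every fit that held their probe. The fit that left out dim probes held 187 of the 206. Where leaving out 1 array ended a call, the gene is named beside its result with its value in such a fit.

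**Figure D1:**
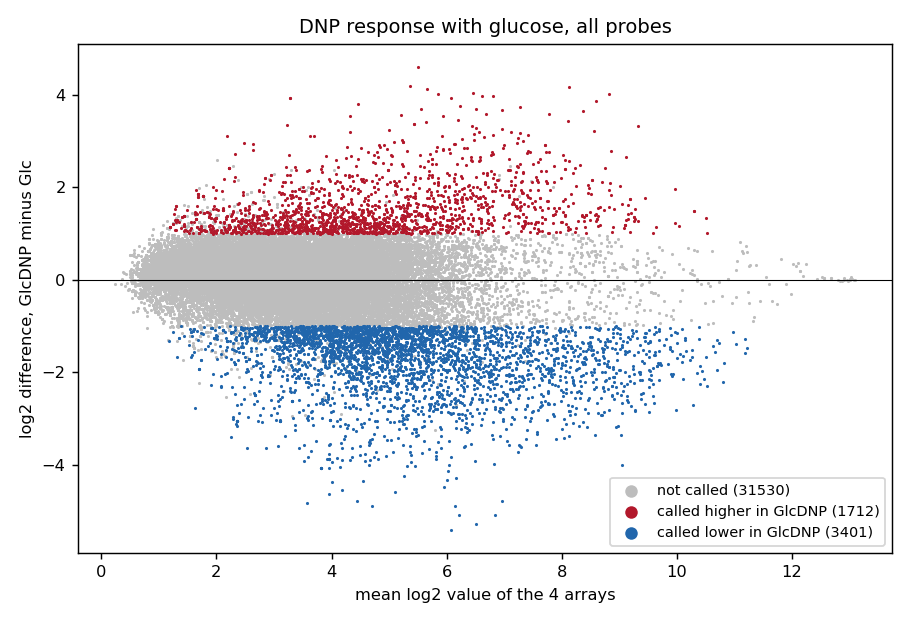
Log2 difference of GlcDNP minus Glc (vertical axis) against the mean log2 value of the 4 arrays (horizontal axis) for 36643 probes. Red points are the 1712 probes called higher in GlcDNP, blue points the 3401 called lower and grey points the rest. The blue cloud is denser and reaches further from 0, to -5.40, than the red one, which reaches 4.60.

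Most of the probes with the most extreme differences carry no usable name. Among the 50 probes with the highest difference 8 had one, and among the 50 with the lowest difference 2 had one. Of the probes matched to 1 gene, LOC4334592 rose the most, with 10.87 and 10.79 in GlcDNP against 6.83 and 6.79 in Glc, a 16.2-fold difference. LOC4346304 rose 16.1-fold. LOC9270481 fell 29.8-fold and LOC4344618 fell 22.5-fold. No function is assigned to these 4 genes in the tables used.

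Among the genes that could be named, 5 of the 12 with the highest differences encode small heat shock proteins. HSP17.9A (LOC4332357), a small heat shock protein that keeps unfolding proteins from aggregating, stood at 10.11 and 10.29 in GlcDNP, against 6.36 and 6.75 in Glc. The arrays of the groups lay far apart, and the difference was 3.64 ± 0.18 (SE, 12.5-fold, adjusted p = 5.77e-06). HSFA3 (LOC4329526), a heat stress transcription factor, stood at 6.92 and 7.06 in GlcDNP, against 3.37 and 3.47 in Glc (3.57 ± 0.19, 11.8-fold). The small heat shock protein genes HSP18.1 (3.42), HSP17.7 (3.27), HSP17.4 (3.07) and HSP16.9C (3.02) also belonged to the first 12.

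The other 6 of the 12 were DREB1A, RAB16C, RH3, GAP1, NAC067 and CML15. DREB1A (LOC4347620), a cold and drought transcription factor of the CBF family, stood at 5.97 and 5.89 in GlcDNP, against 2.30 and 3.15 in Glc (3.21 ± 0.28, 9.22-fold). The 2 Glc arrays differed by more than the 2 GlcDNP arrays, and no array of one group reached the other. RAB16C (LOC4350452), a dehydrin of dry seeds, stood at 8.07 and 8.03 in GlcDNP, against 4.78 and 5.00 in Glc (3.16 ± 0.17, 8.94-fold). RH3 (LOC4324051) rose by 3.11 ± 0.17, although its Glc values of 2.18 and 2.11 lie under the 25th percentile. GAP1 (LOC4329192), a GTPase-activating protein gene, rose by 2.97 ± 0.16. The NAC transcription factor gene NAC067 rose by 2.93 ± 0.20 and the calmodulin-like gene CML15 by 2.92 ± 0.17.

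The 12 named genes with the lowest differences had varied roles, and OST4B, Os-UGD4 and EXPB8 differed the most. OST4B (LOC9267004), a small subunit of the oligosaccharyltransferase that glycosylates secreted proteins, stood at 2.77 and 1.99 in GlcDNP, against 6.36 and 7.08 in Glc (-4.34 ± 0.37, 20.3-fold, adjusted p = 4.04e-05). Os-UGD4 (LOC4352146), a UDP-glucose dehydrogenase gene of wall polysaccharide synthesis, stood at 3.91 and 4.14 in GlcDNP, against 8.40 and 8.20 in Glc (-4.28 ± 0.32, 19.4-fold). EXPB8 (LOC4331298), a beta-expansin of wall loosening, stood at 3.69 and 3.28 in GlcDNP, against 6.99 and 7.57 in Glc (-3.80 ± 0.23, 13.9-fold). In all 3 genes both GlcDNP arrays lay more than a factor of 8 below both Glc arrays.

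BHLH170 (LOC4330725, also named OsBUL1 and PGL2), a basic helix-loop-helix factor, fell by 3.72 ± 0.37, with 2 GlcDNP arrays, 2.33 and 3.50, that differed more from each other than the Glc arrays, 6.45 and 6.82. HSP17.9B (LOC4325695) fell by 3.20 ± 0.24, the one heat shock protein gene to do so. CAD8A, of the cinnamyl alcohol dehydrogenase family, fell by 3.16 ± 0.27, and COA20, a caffeoyl-CoA O-methyltransferase gene also named ROMT-15, by 3.05 ± 0.19. FNR (LOC4334338), a ferredoxin-NADP reductase gene, stood at 5.16 and 5.38 in GlcDNP, against 8.33 and 8.37 in Glc (-3.08 ± 0.19). ACT1 (LOC4333919), an actin gene, stood at 3.06 and 3.41 in GlcDNP, against 6.15 and 6.4 in Glc (-3.04 ± 0.20, 8.23-fold). Actin genes are often taken as references for transcript amounts, and this one differed more than 8-fold between the conditions. TIM9 of mitochondrial protein import (-2.98 ± 0.28), ORC6 of the origin recognition complex (-2.92 ± 0.25) and DAPB1 of lysine synthesis (-2.84 ± 0.22) completed the 12.

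**Figure D2:**
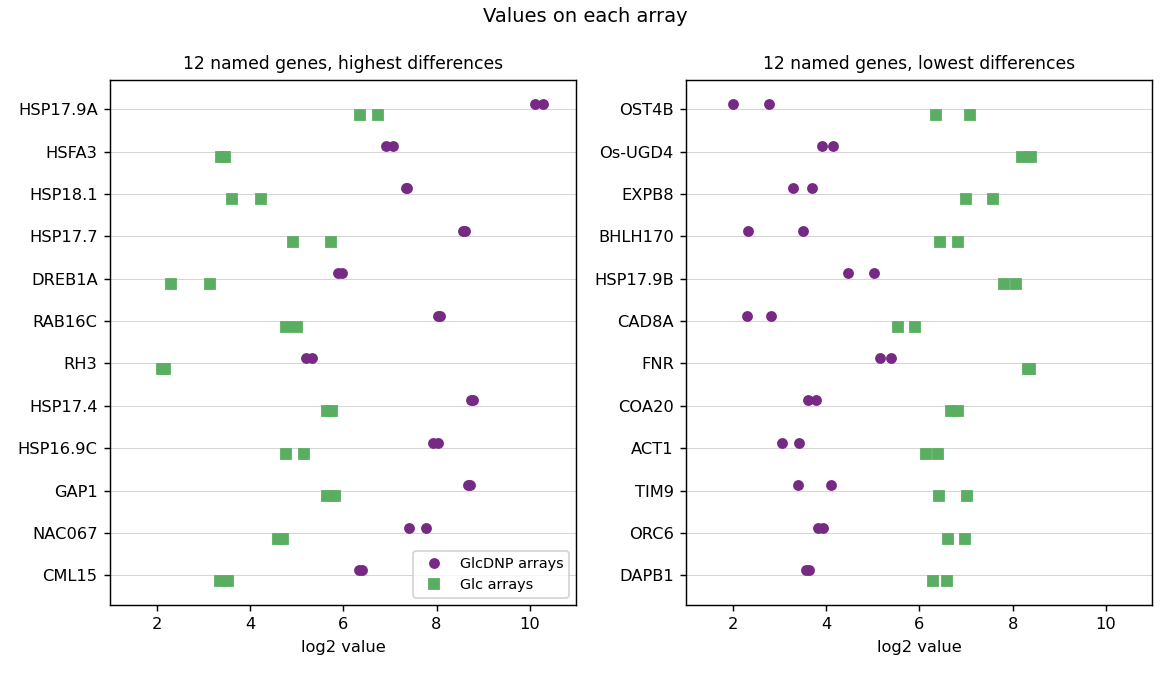
Log2 values on each array for the 12 named genes with the highest (left) and the 12 with the lowest (right) difference. Purple circles are the 2 GlcDNP arrays and green squares, just below them, the 2 Glc arrays. In every one of the 24 genes the arrays of the conditions do not overlap, which the choice of genes required.

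Most heat shock protein genes on the list rose. Of 26 probes on the list, 18 rose and 1 fell, against 5.19% and 13.5% of all named probes. The list's median difference was 2.21, against 0.10 over all probes. HSP16.9A (LOC4325697) stood at 10.23 and 10.27 in GlcDNP, against 7.39 and 7.53 in Glc (2.79 ± 0.15, 6.91-fold). The other small heat shock protein genes that rose ran from HSP19.0, at 1.0, to HSP18.6, at 2.77. HSP19.0 was not called without GlcDNP replicate 2 (0.89). The ClpB disaggregase genes CLPB1 (2.22 ± 0.22) and CLPB-M (1.78 ± 0.17) rose as well. CLPB-C, another ClpB gene, at 0.79, and HSP81-1, an HSP90 gene, at 0.32, were not called. Several of these genes are close copies of each other, and how far their probes tell them apart was not tested.

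Heat shock factors, which switch on heat shock protein genes or damp them, went both ways. Of 23 probes, 6 rose and 4 fell, against 5.19% and 13.5% of all named probes, with a median of 0.51. The count that fell is near that 13.5% and is not read as a result about the family. HSFA4D (LOC4339409, also named SPL7) stood at 6.51 and 6.28 in GlcDNP, against 3.80 and 3.64 in Glc (2.67 ± 0.20, 6.38-fold). HSFA9, a factor that in Arabidopsis acts in seed maturation, rose by 2.15 ± 0.20, HSFB2A by 1.63 ± 0.16, HSFC2A by 1.47 ± 0.28 and HSFA2A by 1.14 ± 0.19 (0.98 and not called without Glc replicate 1). On the other side, the probe of LOC4348646 fell, with 5.67 and 5.24 in GlcDNP against 8.10 and 8.31 in Glc (-2.75 ± 0.19). The tables name this gene both HSFA2C and ARD1, and which it measures is not settled. HSFB4C fell by 2.09, HSFA5 by 1.46 and HSFB4B by 1.08.

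Dehydrins and other late embryogenesis abundant (LEA) proteins, which protect the dry seed and normally dwindle during germination, were higher with DNP without exception on this list. All 9 probes rose, and in all 9 both GlcDNP arrays lay above both Glc arrays, as they did in 35.3% of all probes. The median difference was 1.84. RAB16B (LOC4350453) stood at 8.75 and 8.77 in GlcDNP, against 5.92 and 6.11 in Glc (2.75 ± 0.18, 6.71-fold). Emp1 (LOC4338499), which encodes the Em protein of the mature embryo, stood at 8.45 and 8.48 in GlcDNP, against 6.10 and 5.89 in Glc (2.47 ± 0.17, 5.53-fold). RAB21 rose by 1.96, Dhn1 by 1.84, rab25 by 1.79, LEA19 by 1.70, LEA1 by 1.57 and RAB16D by 1.13.

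Of 3 embryo markers, 2 rose, OLE18 and Emp1, of which Emp1 is already counted among the LEA genes. OLE18 (LOC4333812), an oleosin of seed oil bodies, stood at 8.5 and 8.60 in GlcDNP, against 6.73 and 6.48 in Glc (1.95 ± 0.17). The homeobox gene OSH1, the third marker, was at 3.06 and 2.99 in GlcDNP, against 3.56 and 3.29 in Glc, so both GlcDNP arrays lay lower, and it was not called. The summed level of the 3 on the linear scale was 720 and 752 in GlcDNP, against 186 and 158 in Glc. Of 11 markers of the starchy endosperm, 1 rose, the glutelin gene GLUA-1 (1.84 ± 0.28). Their summed level was 87.3 and 75.4 in GlcDNP, against 69.6 and 74.1 in Glc, and 5 of the 11, among them GBSS-I of amylose synthesis, were under the 25th percentile in both conditions. None of 10 green shoot markers was called, with summed levels of 70.0 and 64.4 in GlcDNP, against 54.9 and 57.4 in Glc. The part of other tissues in the results was not tested further.

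Regulators of dehydration and cold responses were also among the genes that rose. Of 13 DREB and related ERF factors, 8 rose and none fell (limma), against 5.19% and 13.5% of all named probes. In all 13 both GlcDNP arrays lay above both Glc arrays, as in 35.3% of all probes. DREB1B (LOC4347618) stood at 8.51 and 8.46 in GlcDNP, against 6.47 and 5.86 in Glc (2.32 ± 0.22, 4.98-fold). DREB1J rose by 2.50, DREB1H by 2.27, DREB1I by 2.22, DREB2B by 1.69, DREB1C by 1.47 and DREB1E by 1.05, while DREB2A, at 0.40, was not called. DREB1E was not called without GlcDNP replicate 2 (0.83). Of 20 genes of abscisic acid, the hormone of seed dormancy and drought, 3 rose and none fell, against the same 5.19% and 13.5%. They were NCED3, of the committed step of its synthesis (1.43 ± 0.17), ABA8OX3, which breaks the hormone down (1.24 ± 0.19), and the SnRK2 kinase gene OsSAPK5 (1.11 ± 0.21, but 0.92 and not called without GlcDNP replicate 2). Among 6 WRKY factors OsWRKY62 (2.20), OsWRKY71 (1.15) and OsWRKY24 (1.02) rose. Besides NAC067, NAC068 rose by 1.75 among 10 NAC factors.

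**Figure D3:**
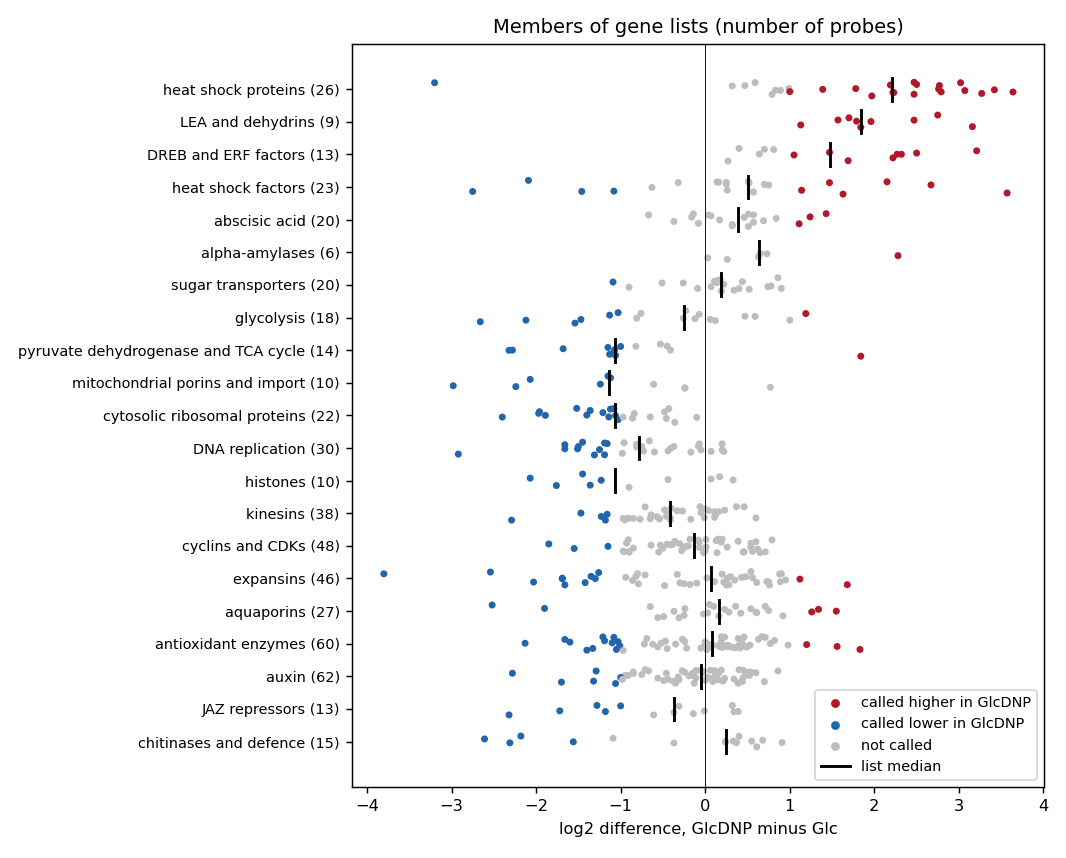
Log2 difference of GlcDNP minus Glc (horizontal axis) for each probe of 21 gene lists, with the number of probes beside the list's name. Red points rose, blue points fell, grey points were not called and black bars are medians. Heat shock proteins (median 2.21), LEA and dehydrins (1.84) and DREB factors (1.47) lie to the right, and porins and import (-1.13), pyruvate dehydrogenase and tricarboxylic acid cycle (-1.07), ribosomal proteins (-1.07) and histones (-1.07) to the left.

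Sugar-regulated genes gave a mixed picture in which the alpha-amylase gene RAmy3D stood out. RAmy3D (LOC4345814), which in rice is repressed by sugar, stood at 5.61 and 5.53 in GlcDNP, against 3.36 and 3.24 in Glc (2.28 ± 0.16, 4.84-fold, adjusted p = 1.66e-05). Of 6 alpha-amylase probes it alone was called. The difference was 0.73 for AMY1.5, 0.65 for AMY1.2 and 0.63 for AMY1.1, all at levels under the 25th percentile in at least Glc. None of 7 genes of sugar signalling was called by limma. MYBS2, a repressor of amylase promoters, was at 2.50 and 2.33 in GlcDNP, against 1.75 and 1.76 in Glc. The kinase gene SnRK1A was at 5.36 and 5.26 in GlcDNP, against 5.77 and 5.95 in Glc. CIPK15, a kinase known to act upstream of SnRK1A under low oxygen, was at 2.04 and 1.79 in GlcDNP, against 1.31 and 0.99 in Glc, dim in both. Their differences of 0.66, -0.55 and 0.77 did not reach the threshold.

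Genes that take up and cleave sugar were mostly not called. Of 20 sugar transporters, MST3, a hexose transporter gene, fell (-1.09 ± 0.28). Of 17 genes of sucrose cleavage 2 fell. OsSUS2 (LOC4340386), a sucrose synthase gene, stood at 2.64 and 2.49 in GlcDNP, against 4.83 and 5.04 in Glc (-2.37 ± 0.18, 5.18-fold), and the invertase gene CINV1 fell by 1.17. Of 8 trehalose-6-phosphate phosphatases OsTPP8 fell, by 1.16. Calls ended without GlcDNP replicate 1 for MST3 (-0.94), CINV1 (-0.99) and OsTPP8 (-0.99), and none of these 3 was called after another quantile normalization.

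In glycolysis 6 of 18 probes fell and 1 rose, against 13.5% and 5.19% of all named probes, with a median of -0.24. The largest fall was that of FBA1 (LOC4338737), an aldolase gene, at 8.32 and 8.24 in GlcDNP, against 10.94 and 10.94 in Glc (-2.66 ± 0.15, 6.31-fold). The Glc arrays gave the same value for it and the GlcDNP arrays nearly the same. The hexokinase gene HXK2 (LOC4339420) fell by 2.12 ± 0.24, GAPC2 by 1.54, the enolase gene Eno1 by 1.47, the triose-phosphate isomerase gene TPI by 1.13 and a second aldolase gene, AldC-1, by 1.03. The hexokinase gene HXK1 (LOC4343113) rose, by 1.19 ± 0.30. Without Glc replicate 1 neither HXK1 (0.93) nor AldC-1 (-0.99) was called. None of the 3 probes of ethanol fermentation rose. PDC2 (LOC4332519), a pyruvate decarboxylase gene, fell, at 6.21 and 6.51 in GlcDNP, against 7.99 and 7.98 in Glc (-1.63 ± 0.18, 3.09-fold). PDC3 differed by 0.46 and Adh2, of alcohol dehydrogenase, by -0.80, both not called and dim in at least 1 condition.

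Most genes of mitochondrial sugar oxidation on the list fell as deposited. Of 14 probes for pyruvate dehydrogenase and the tricarboxylic acid cycle 9 fell and 1 rose, against 13.5% and 5.19% of all named probes. In 12 of the 14 both GlcDNP arrays lay below both Glc arrays, as in 28.3% of all probes. SDH3-2 (LOC4343404), of the membrane anchor of succinate dehydrogenase, stood at 6.35 and 6.38 in GlcDNP, against 8.40 and 8.97 in Glc (-2.32 ± 0.25, 4.99-fold). SDH5 fell by 2.28, SDH3-1 by 1.68, SDH2-1 by 1.09, SDH7 by 1.07, SDH1 by 1.06 and SDH4 by 1.0, so that 7 of the complex's genes on the list fell. At least 7 of the 14 probes are of this complex, so its part in the falls does not single it out. Calls ended without GlcDNP replicate 2 for SDH1 (-0.95) and SDH4 (-0.90), and without GlcDNP replicate 1 for SDH2-1 (-0.97) and SDH7 (-0.97). The 2 called probes of the alpha subunit of pyruvate dehydrogenase went opposite ways. PDHE1-A of LOC4340640 rose, at 6.68 and 6.96 in GlcDNP, against 4.95 and 5.01 in Glc (1.84 ± 0.17), and PDHE1-A of LOC4330673 fell by 1.15, with a GlcDNP level under the 25th percentile. SCS-alpha, of succinyl-CoA ligase, fell by 1.13. The count of 9 was 4 when the columns were quantile-normalized again, and the median of -1.07 became -0.75.

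The membrane systems that move electrons, metabolites and proteins were lower in part. COX5c (LOC4352516), a subunit of cytochrome c oxidase, stood at 3.40 and 3.36 in GlcDNP, against 5.52 and 5.51 in Glc (-2.13 ± 0.21), whereas cytochrome c gene CC-1 was at 10.21 and 10.21 in GlcDNP, against 9.89 and 10.08 in Glc, not called. Of 10 genes of mitochondrial porins and import, a list added after the design, 6 fell and none rose. The shares of all named probes were 13.5% and 5.19%. OsVDAC1 (LOC4346851), a porin of the outer membrane, stood at 4.32 and 4.72 in GlcDNP, against 6.58 and 6.93 in Glc (-2.24 ± 0.21, 4.71-fold). OsVDAC5 fell by 2.07, OsVDAC4 by 1.24, OsVDAC3 by 1.15 and the import chaperone gene TIM13 by 1.12, beside TIM9. Without GlcDNP replicate 1 neither OsVDAC4 (-0.77) nor TIM13 (-0.88) was called. AOX1 (LOC4336874), the alternative oxidase that bypasses part of proton pumping, was at 7.84 and 7.65 in GlcDNP, against 7.45 and 7.0 in Glc. Its arrays did not overlap, but the difference of 0.52 ± 0.19 was not called (adjusted p = 0.0772). After another quantile normalization it was 0.92, also not called.

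Genes for burning fuels other than sugar were mostly not called. ICL (LOC4343441), isocitrate lyase of the glyoxylate cycle, was at 4.52 and 4.44 in GlcDNP, against 3.83 and 3.57 in Glc (0.78 ± 0.22, not called). MFP, of fatty acid beta-oxidation, fell by 1.04, a call that was lost after another quantile normalization. None of 5 amino acid catabolism genes and none of 4 genes of the electron transfer flavoprotein route was called by limma. Their median differences were 0.20 and 0.01, the second of which became -0.02 when each column was centred.

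Most cytosolic ribosomal protein genes on the list fell as deposited. Of 22 probes 13 fell and none rose (limma), against 13.5% and 5.19% of all named probes. In 21 both GlcDNP arrays lay below both Glc arrays, as in 28.3% of all probes, and the highest of the 22 differences was -0.10. RPL39C (LOC9268459) stood at 8.01 and 7.70 in GlcDNP, against 10.33 and 10.18 in Glc (-2.40 ± 0.17, 5.29-fold). RPL11 fell by 1.97, RPS27AB by 1.96, RPS15 by 1.89, RPS10 by 1.52, RPS10-1 by 1.40 and RPS26 by 1.36. RPL3, RPL5B, RPS3A, RPL30, 60SP0 and RPS21 fell by 1.03 to 1.21. Without Glc replicate 2 the calls of 60SP0 (-0.95), RPS3A (-0.88) and RPS21 (-0.82) ended. With the columns quantile-normalized again the list's median of -1.07 became -0.59 and 7 of the 22 fell. Among 20 chaperones of the endoplasmic reticulum, where secreted proteins fold, OsPDIL5-1 (-1.41), BIP (-1.13) and OsPDIL2-1 (-1.11) fell and none rose. This list was added after the design. Its counts are near the 13.5% and 5.19% of all named probes and are not read as a result about the family. BIP was not called without Glc replicate 1 (-0.99), nor OsPDIL2-1 without GlcDNP replicate 2 (-0.83).

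Genes of DNA replication and chromatin fell in part. Of 30 replication probes 11 fell and none rose (limma), against 13.5% and 5.19% of all named probes, with a median of -0.78. ORC6 (LOC4343985) stood at 3.93 and 3.82 in GlcDNP, against 6.61 and 6.98 in Glc (7.59-fold lower). OsRPA70b, of the single-strand binding protein RPA, stood at 3.04 and 3.39 in GlcDNP, against 4.78 and 4.98 in Glc (-1.66 ± 0.18). The flap endonuclease gene FEN1A fell by 1.5, ORC4 by 1.51, the clamp loader gene OsRFC4 by 1.25, OsRPA32 by 1.19 and OsRPA32-2 by 1.16. ORC3 (-1.45) and the helicase genes MCM3 (-1.66), MCM2 (-1.31) and MCM7 (-1.19) fell too. Of these, ORC3, MCM3 and MCM7 had GlcDNP levels under the 25th percentile, so that their falls are of unsettled size. ORC4 rests on GlcDNP arrays that disagree, 2.15 and 3.28, against 3.83 and 4.62 in Glc. Without Glc replicate 2 the calls of ORC4 (-1.12), OsRPA32 (-1.07) and MCM7 (-0.92) ended.

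Of 10 histone probes 5 fell, all H2B genes, and none rose, against 13.5% and 5.19% of all named probes. H2B.9 (LOC4339681) stood at 5.98 and 6.02 in GlcDNP, against 7.88 and 8.25 in Glc (-2.07 ± 0.22, 4.19-fold). H2B.2 fell by 1.76, H2B.3 by 1.45, H2B.11 by 1.36 and H2B.10 by 1.23 (-1.06 and not called without GlcDNP replicate 2). Histone genes are near-identical copies, and which of them a probe measures was not tested. Cell cycle regulators were mostly not called. Of 48 cyclins, kinases and inhibitors, CYCA3-1 (-1.85, dim in GlcDNP), CDKB1-1 (-1.55) and KRP5, a kinase inhibitor (-1.15), fell, with a list median of -0.13. Of 38 kinesins, which move chromosomes and cargo along microtubules, 5 fell. That count is near the 13.5% of all named probes that fell and is not read as a result about the family. KIN5C (LOC9271005) stood at 3.77 and 3.77 in GlcDNP, against 5.74 and 6.38 in Glc (-2.29 ± 0.24), and KIN13B, KIN7K, KIN8B and KIN14L fell by 1.16 to 1.47. KIN7K and KIN8B were not called without GlcDNP replicate 1 (-1.10 and -0.97), nor KIN14L without Glc replicate 2 (-0.85). The number of kinesins that fell was 4 to 9 over the fits that left out 1 array, 9 of them without Glc replicate 1, and that of cell cycle regulators 4 to 6, with 6 without GlcDNP replicate 2.

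Genes of cell growth were mostly not called. Of 46 expansins, which loosen the wall, 10 fell and 2 rose, against 13.5% and 5.19% of all named probes, with a median of 0.07 that became -0.02 after another quantile normalization. EXPB6 (LOC4349347) stood at 3.68 and 3.60 in GlcDNP, against 5.97 and 6.4 in Glc (-2.54 ± 0.21), and EXPB4 fell by 2.03. EXP33, EXP4, EXP8, EXP29, EXPB2, EXP3 and EXLA3 fell by 1.26 to 1.69. EXLA1 (LOC4331516), an expansin-like gene, rose, at 6.94 and 6.83 in GlcDNP, against 5.2 and 5.2 in Glc (1.68 ± 0.15, 3.21-fold), and EXP11 rose by 1.12 (0.96 and not called without Glc replicate 1). Of 34 genes of the cellulose synthase superfamily 5 fell, CSLC2 (-1.76), CESA1 (-1.40), CSLE2 (-1.27), CSLA1 (-1.05) and CSLC7 (-1.02), and CSLD5 rose by 1.09, counts near the share of all named probes that fell and below the share that rose. Without Glc replicate 2 neither CSLE2 (-1.08), CSLA1 (-1.12), CSLC7 (-1.13) nor CSLD5 (0.89) was called. Of 17 genes toward lignin 4 fell, against 13.5% of all named probes. They were CAD8A, CAD2 (-1.75), PAL06 (-1.38) and 4CL-3 (-1.20). Without GlcDNP replicate 2 neither PAL06 (-0.69) nor 4CL-3 (-1.14) was called.

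Aquaporins, the water channels, were mostly not called. Of 27 probes 3 rose and 2 fell, against 5.19% and 13.5% of all named probes, which are small counts not read as a result about the family. The plasma membrane gene OsPIP2;1 (LOC4343122) fell, at 6.69 and 6.68 in GlcDNP, against 8.59 and 8.57 in Glc (-1.90 ± 0.16), as did NIP1-1 (-2.52 ± 0.24). The vacuolar genes OsTIP1;1 (1.26), OsTIP1;2 (1.34) and OsTIP3;1 (1.55) rose. OsTIP1;1 (LOC4331608) stood at 8.05 and 7.94 in GlcDNP, against 6.49 and 6.99 in Glc.

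Of 20 genes of nitrogen uptake and assimilation 3 fell and 1 rose, counts near the 13.5% and 5.19% of all named probes. GLN1-1 (LOC4330649), a cytosolic glutamine synthetase, stood at 6.73 and 5.83 in GlcDNP, against 8.90 and 9.11 in Glc (-2.73 ± 0.29, 6.62-fold). The GlcDNP arrays differed from each other and both lay below Glc. NAR2.2, a partner of nitrate transporters, fell by 1.82 and the ammonium transporter gene AMT1 by 1.54, while GLN1-3, another glutamine synthetase gene, rose by 1.26 ± 0.23 (0.99 and not called without GlcDNP replicate 1). Of 4 non-symbiotic hemoglobins, which scavenge nitric oxide and respond to low oxygen, 2 fell and 2 were not called. NSHB3 differed by 0.11 and NSHB4, whose GlcDNP arrays both lay above its Glc arrays at dim levels, by 0.47. NSHB1 (LOC4332166) stood at 5.92 and 5.99 in GlcDNP, against 8.70 and 8.81 in Glc (-2.80 ± 0.20, 6.96-fold), and NSHB2 fell by 1.28, a call lost after another quantile normalization. Of 8 autophagy genes APG12 fell (-1.04), on GlcDNP arrays of 3.01 and 3.86, and was not called without GlcDNP replicate 1 (-0.61).

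Enzymes against reactive oxygen were mostly not called. Of 60 probes 12 fell and 3 rose, against 13.5% and 5.19% of all named probes, with a median of 0.08. The glutaredoxin gene GRXC8 (LOC4341733) fell, at 7.53 and 7.97 in GlcDNP, against 9.93 and 9.82 in Glc (-2.13 ± 0.22), and so did the ascorbate peroxidase genes APX2 (-1.66), APX7 (-1.40), APX1 (-1.21) and APX4 (-1.05). The superoxide dismutase genes cuznsod1, RMSOD1 and sodCp fell by 1.10 to 1.33, and GRXS7, GRXC3, MDAR5 and GRXS1 by 1.01 to 1.6. The glutaredoxin gene GRXS5 (1.83), the thioredoxin gene OsTrx18 (1.56) and OsCXXS1 (1.20) rose. Without Glc replicate 2 the calls of APX4 (-0.92), GRXS1 (-0.88), MDAR5 (-0.69) and sodCp (-0.83) ended, and without Glc replicate 1 that of APX1 (-0.80). Of 5 glutathione transferases GST1 (-1.63) and GST-II (-1.53) fell.

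Genes of other hormones, like those of abscisic acid, were mostly not called. Of 62 auxin genes 6 fell and none rose, against 13.5% and 5.19% of all named probes. Those that fell were IAA30 (-2.28), IAA17 (-1.70), IAA21 (-1.32), GH3-8 (-1.29), IAA31 (-1.06) and IAA6 (-1.0). Without GlcDNP replicate 1 the calls of IAA17 (-1.28), IAA31 (-0.90) and IAA6 (-0.97) ended. None of 7 gibberellin genes was called. Of 11 ethylene genes the receptor genes ERS1 (-1.55) fell and ETR4 (1.02) rose, ETR4 not called without GlcDNP replicate 1 (0.93). Of 13 JAZ repressors of jasmonate signalling, a list added after the design, 5 fell and none rose, against the same 13.5% and 5.19%. EG2 (LOC4337240, also named JAZ1) stood at 6.24 and 5.96 in GlcDNP, against 8.29 and 8.55 in Glc (-2.32 ± 0.19), and JAZ7, JAZ12, JAZ4 and JAZ3 fell by 1.0 to 1.72 (JAZ3 -0.73 and not called without GlcDNP replicate 1). After another quantile normalization 2 of these 5 were called. Among 15 chitinases and defence genes CH16 (-2.61), CH6 (-2.31), Rcb4 (-2.18) and PBZ1 (-1.56) fell. The chitinase gene CH16 (LOC4342115) stood at 4.92 and 4.61 in GlcDNP, against 7.31 and 7.44 in Glc.

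To see which of these differences went with glucose, the same contrast was read in embryos on mannitol, whose 4 arrays are not shared. There 5983 probes were called (16.3%), 2167 rising (5.91%) and 3816 falling (10.4%). Over all 36643 probes the DNP differences with the 2 sugars correlated at r = 0.754, a description over genes that share arrays within each contrast. Of the probes that rose with glucose 49.5% rose with mannitol, which is 39.1% of the mannitol risers (847 probes). Of those that fell with glucose 70.1% fell with mannitol, 62.5% of the mannitol fallers (2384 probes). Most heat shock protein and LEA probes rose with each sugar. Among the 26 heat shock proteins 18 rose with each sugar, with a median of 2.21 with glucose and 1.71 with mannitol. Of the 9 LEA and dehydrin probes 9 rose with glucose and 8 with mannitol, with medians of 1.84 and 1.72. RAB16C rose by 3.16 with glucose and 3.13 with mannitol. Of the 13 DREB and ERF factors 8 rose with glucose and 6 with mannitol, with medians of 1.47 and 0.81.

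The difference between the sugars was tested directly, as the DNP difference with glucose minus that with mannitol. It was called for 435 probes (1.19%), 369 above 0 (1.01%) and 66 below 0 (0.180%), and for 241 without Mtl replicate 1, 250 without Mtl replicate 2, 281 without GlcDNP replicate 1 and 287 without Glc replicate 1. No member of the heat shock protein, LEA, ribosomal protein, succinate dehydrogenase, replication or histone genes was among them. Of 30 replication probes 11 fell with glucose and 2 with mannitol, with medians of -0.78 and -0.23. Of 10 histone probes 5 fell with glucose and none with mannitol, with medians of -1.07 and -0.34. Among the probes that rose with glucose, the difference between sugars was called for 82, all above 0. Among those that fell with glucose it was called for 89, with 45 above 0 and 44 below.

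**Figure D4:**
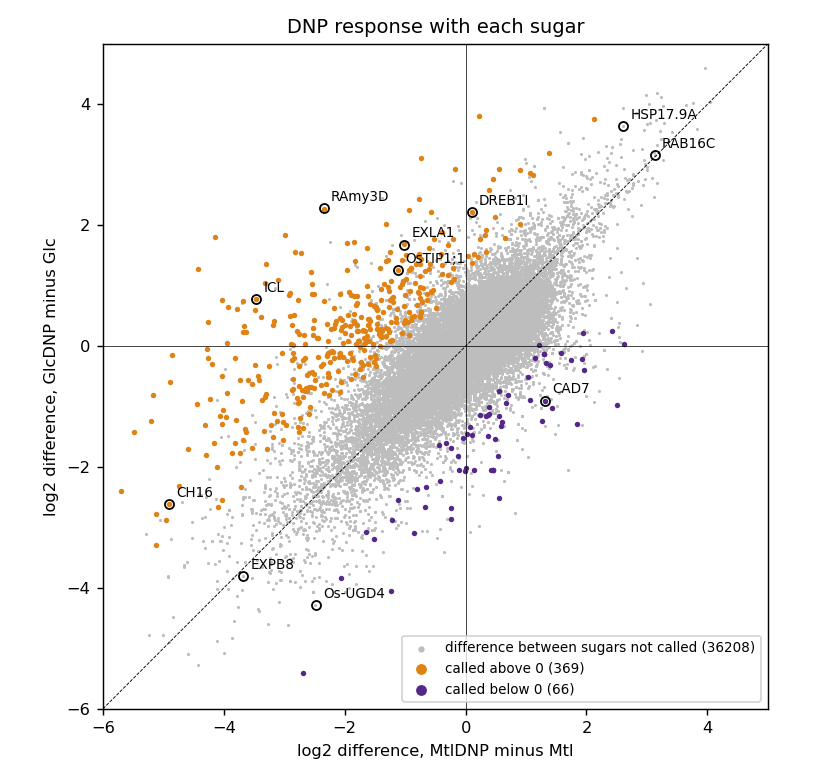
Log2 difference of GlcDNP minus Glc (vertical axis) against that of MtlDNP minus Mtl (horizontal axis) for 36643 probes, with the line of equal differences dashed. Orange points are the 369 probes whose difference between sugars was called above 0, purple points the 66 called below 0, and circles mark named genes. RAmy3D lies in the upper left at 2.28 with glucose and -2.35 with mannitol, while HSP17.9A and RAB16C lie in the upper right.

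In 29 probes, 3 of them named, the direction turned over. They rose with DNP on glucose and fell with it on mannitol. RAmy3D fell by 2.35 with mannitol, where it stood at 5.47 in MtlDNP, against 7.82 in Mtl. Its mean was 5.57 in GlcDNP and 5.47 in MtlDNP, and the difference between sugars was 4.62 (adjusted p = 4.3e-05). EXLA1 rose by 1.68 with glucose and fell by 1.02 with mannitol, and OsTIP1;1 rose by 1.26 and fell by 1.11. DREB1I rose by 2.22 with glucose and differed by 0.10 with mannitol (difference 2.12). In 3 probes, none with a usable name, the turn was the other way.

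Several genes were lower with DNP on mannitol and not called on glucose. ICL differed by 0.78 with glucose and fell by 3.46 with mannitol. ASMT, of melatonin synthesis, differed by -0.60 with glucose and fell by 4.89 with mannitol. OsTIP2;2, of the vacuolar membrane, differed by 0.75 with glucose and fell by 3.69 with mannitol. The lectin gene salT (LOC4326471) was at 9.15 and 8.82 in GlcDNP, against 9.16 and 9.21 in Glc, not called, and fell by 4.26 with mannitol. CIPK15 differed by 0.77 with glucose, at dim levels, and fell by 4.03 with mannitol. Without DNP these genes already stood higher in Mtl than in Glc. The difference was 3.90 for ICL, 3.41 for ASMT, 3.65 for OsTIP2;2, 2.40 for salT and 4.70 for CIPK15. With DNP, ICL averaged 4.48 in GlcDNP and 4.14 in MtlDNP, and salT 8.98 and 7.33. How far the levels without DNP account for the difference between sugars was not tested. The chitinase genes CH16 and CH6 fell with both sugars, by 2.61 and 2.31 with glucose and by 4.91 and 4.73 with mannitol. Below 0 stood the nitrate transport partner gene NAR2.2, which fell by 1.82 with glucose and differed by -0.13 with mannitol. OsRDR2, an RNA-dependent RNA polymerase gene, fell by 1.45 with glucose and differed by 0.02 with mannitol. For both, the call of the difference between sugars (-1.68 and -1.48) ended without Glc replicate 1, at -1.48 and -1.47. It also ended in most of the other fits that left out 1 array for NAR2.2, and in all of them for OsRDR2.

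**Figure D5:**
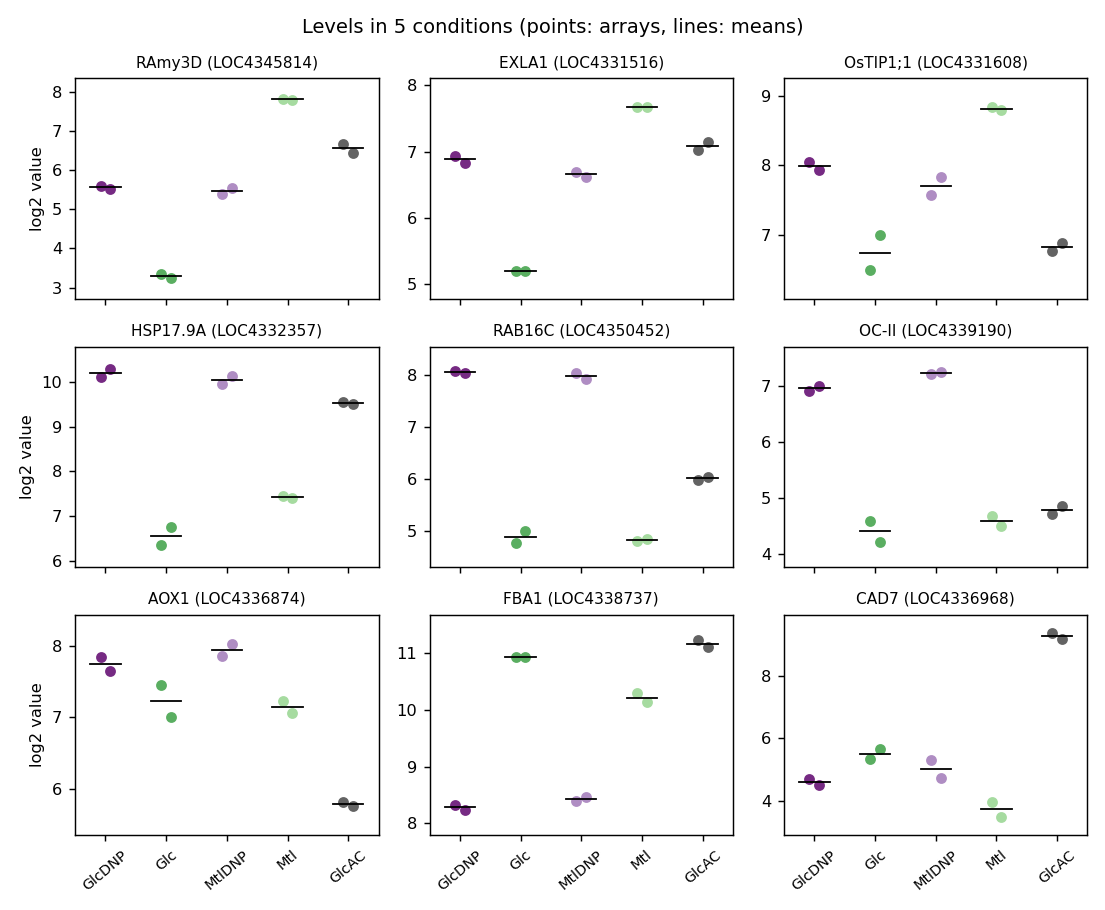
Log2 values of 9 genes in GlcDNP, Glc, MtlDNP, Mtl and GlcAC (2 arrays each as points, their mean as a line). The 9 genes were picked after their values were seen. RAmy3D, EXLA1 and OsTIP1;1 are higher in GlcDNP than in Glc and lower in MtlDNP than in Mtl. HSP17.9A, RAB16C and OC-II are higher with DNP on both sugars, FBA1 is lower with DNP on both, and CAD7 is highest in GlcAC.

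The AC incubation allows a comparison of DNP with another condition on the same glucose. GlcDNP was set directly against GlcAC, since a comparison of each with Glc would share the Glc arrays. Of the probes 1929 were called (5.26%), 475 higher in GlcDNP (1.30%) and 1454 lower (3.97%), and 1216 without GlcAC replicate 2. The calls that were higher made up 24.6%, and 37.2% when the columns were quantile-normalized again. Dehydrins were higher with DNP, 6 of 9 probes, with a median of 1.10. RAB16C averaged 8.05 in GlcDNP and 6.01 in GlcAC, a difference of 2.04 ± 0.17. OC-II (LOC4339190), a cystatin that inhibits cysteine proteinases, averaged 6.96 in GlcDNP and 4.79 in GlcAC (2.18). OsTLP10 of LOC4339597, a tubby-like protein gene (2.13), AOX1 (1.96) and DREB1H (1.89) were the next highest. AOX1 averaged 7.74 in GlcDNP and 5.78 in GlcAC.

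Most heat shock proteins were not called between GlcDNP and GlcAC, but the list leaned toward GlcDNP. Of 26 probes 5 were higher in GlcDNP and none lower, against 1.30% and 3.97% of all probes. The list's median was 0.65, against 0.07 over all probes. HSP17.9A averaged 10.20 in GlcDNP and 9.53 in GlcAC. Its difference of 0.67 (limma, adjusted p = 0.0468) was under 2-fold and so not called. Genes lower with DNP than under AC included those of fermentation and glycolysis. PDC2 was lower by 2.31 and Adh2 by 2.33, and 7 of 18 glycolysis probes were lower, FBA1 by 2.89. The largest named differences were CAD7 (LOC4336968), a cinnamyl alcohol dehydrogenase gene also named FC1, at 4.70 and 4.51 in GlcDNP, against a mean of 9.30 in GlcAC (-4.69), the xylanase inhibitor gene Chib3H-a (-4.12, dim in GlcDNP), OST4B (-3.70), a chitinase gene of LOC4351188 (-3.28) and the auxin-responsive gene SAUR39 (-3.09). OST4B averaged 2.38 in GlcDNP and 6.08 in GlcAC. In Glc its mean was 6.72.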

How the data were processed

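RNA of whole embryos was hybridised to 12 Affymetrix arrays, 2 for each of 6 conditions. The deposited values are RMA values at core level, per the labels made in Expression Console, and are taken here as log2 values, since the log base is not stated by the authors. The submitters' processing notes name Affymetrix Power Tools. Of versions, genome build and probe annotation these sources say nothing. Probes were named through GEO's platform annotation and symbols of a RefSeq gene table, used for names only. The scanner intensities were not used here, so the number of arrays limits the precision.

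Using the deposited columns unchanged, limma 3.58.1 in R 4.3.3 was fitted to all 12 arrays with 1 coefficient per condition (6 residual and 3.82 prior degrees of freedom). P-values were adjusted by Benjamini-Hochberg over 36643 probes. The contrasts read were: GlcDNP over Glc, MtlDNP over Mtl, the difference between these 2, and GlcDNP over GlcAC. In data simulated for GlcDNP over Glc on 36643 probes, 200 were changed, as many up as down. Of the changes 86% of log2 2 and 93% of log2 3 were recovered, with 7 false calls. The simulated noise was normal and independent between arrays, and no other condition differed. The deposited data differ in these points, so the simulation checks the code and does not give their number of false calls.

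The named genes are the 12 called probes with the highest and the 12 with the lowest difference whose arrays do not overlap and that have 1 informative name, 5 each way for the other contrasts, and the called members of each gene list, or else up to 4. The comparison, the members and the 45 lists were chosen with earlier results of these data known, and 5 of the lists were added after their design. Alternatives were another quantile normalization, centring, leaving out dim probes or 1 array, a trended robust fit, the compared arrays alone, a minimum fold tested with treat, and a replicate block.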

Additional observations from a re-analysis of the deposited data

Results flagged for a closer look

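For 37 described genes the DNP difference with glucose differed from that with mannitol in limma's test of the difference itself. The values that follow are log2 differences, glucose minus mannitol. They also depend on the levels without DNP, which for CIPK15 were 4.70 higher in Mtl than in Glc and for ICL 3.90 higher. Groups of 2 arrays are too small for a test of single outlying arrays.

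Sugar- and starvation-related genes were among those above 0: CIPK15 at 4.8, RAmy3D at 4.62, ICL at 4.24, OsTPP1 at 3.22, the hexokinase gene HXK6 at 2.64, the invertase gene CIN2 at 2.14 and OsTPP2 at 1.68. CIPK15 and CIPK14, at 3.91, lay under the 25th percentile in both GlcDNP and Glc. Genes that break down amino acids, or pass their electrons to the respiratory chain, were MCCA at 2.95, IVD at 2.48, GDH2 at 2.06, Beta-ETF at 1.87 and ETF-QO at 1.62. None of these 5 was called with glucose, where they ranged from -0.19 to 0.59, and all 5 fell with mannitol, by 1.47 to 2.75. Water channels were OsTIP2;2 at 4.44, OsTIP1;1 at 2.37 and OsPIP1;2 at 1.73. Wall and defence genes were EXLA1 at 2.70, EXPB6 at 1.49, CH6 at 2.42, CH16 at 2.30 and Cht-2 at 2.18. Others were ASMT at 4.29, salT at 4.05, the glutaredoxin gene GRXS2 at 2.50, the isochorismate synthase gene OsICS at 2.48, the catalase gene CAT-A at 2.47, DREB1I at 2.12 and the SnRK2 kinase gene OsSAPK1 at 1.25. The auxin genes were IAA18 at 2.14, SAUR39 at 2.08 and IAA6 at 1.58.

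Below 0 stood CAD7 at -2.21, bHLH (LOC4343984) at -1.92, NAR2.2 at -1.68, OsRDR2 at -1.48, OPR1 at -1.44 and GST1 at -1.19. CAD7 differed by -0.90 with glucose and rose by 1.31 with mannitol. Leaving out 1 array ended the call for each of these 6 in at least 1 fit, as it did for GDH2 (1.96 without GlcDNP replicate 2), OsPIP1;2 (1.70 without GlcDNP replicate 2), EXPB6 (1.27 without Glc replicate 1), CIN2 (1.97 without GlcDNP replicate 1), ETF-QO (1.53 without GlcDNP replicate 1), OsSAPK1 (1.19 without Glc replicate 2), OsTPP2 (1.53 without GlcDNP replicate 1), IAA18 (2.03 without Glc replicate 1) and IAA6 (1.49 without Glc replicate 1). CAD7 stood at -2.05 without Glc replicate 2, bHLH at -1.58 without GlcDNP replicate 2, NAR2.2 at -1.63 and OPR1 at -1.41 without GlcDNP replicate 1, OsRDR2 at -1.32 without GlcDNP replicate 2 and GST1 at -1.06 without GlcDNP replicate 2. GST1 and OsRDR2 lost the call in every fit that left out 1 array. OPR1, bHLH, NAR2.2, CAD7, GDH2, OsSAPK1, EXPB6, CIN2 and OsPIP1;2 lost it in most of those fits.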

How the results depend on the processing

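No followed gene changed direction under the alternatives run. Of the median differences of the 45 lists, 3 changed sign, those of the expansins (0.07 as deposited, -0.02 after another quantile normalization), of the electron transfer flavoprotein route (0.01, and -0.02 centred) and of the glyoxylate cycle and fatty acid breakdown (-0.13, and 0.07 after another quantile normalization). Testing against a minimum fold of 1.5 (treat) left 2771 probes for GlcDNP over Glc, with 820 higher and 1951 lower, 2909 for MtlDNP over Mtl, 172 for the difference between sugars and 569 for GlcDNP over GlcAC, fewer by construction. Over the fits that left out 1 array, the calls numbered 4065 to 5672 for GlcDNP over Glc (1494 to 1948 higher, 2571 to 3724 lower), 5099 to 6595 for MtlDNP over Mtl, 241 to 405 for the difference between sugars and 1216 to 1665 for GlcDNP over GlcAC. A condition left with 1 array was assumed to vary like the others. With a replicate block the 4 contrasts gave 5126, 6004, 411 and 1947 calls and no followed gene lost its call. Same-numbered arrays showed no strong shared deviation (correlations of -0.0214 to 0.0873). Such correlations cannot show whether same-numbered arrays were prepared or run together. Of the 206 genes followed, 73 lost their call under at least 1 alternative, 66 of them under treat and 28 after another quantile normalization, the cause of which was not tested. That normalization turned the split of MtlDNP over Mtl calls to 44.4% higher, against 36.2% as deposited. Without absolute detection calls, the size of differences that start or end under 2.23 is not settled.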
